A study of Rattus norvegicus with 20 samples.

Results

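Serpins are a family of structurally related proteins, most of which block proteases by acting as a bait that traps the enzyme in a covalent complex. The family is divided into clades named by letter. Clade A holds mainly secreted inhibitors made by the liver, such as alpha-1-antitrypsin. Clade B holds the intracellular serpins, which protect leukocytes from their own granule proteases. The remaining clades include inhibitors of clotting, fibrinolysis and complement. Members were taken as the probe sets (the groups of array probes that read 1 transcript) annotated with a single gene symbol that starts with Serpin. There were 36 of them among 28826 probe sets, of which 15209 carried a single symbol. Each of the 36 genes had 1 such probe set, so no gene could be compared between probe sets. They fell into clades as 14 in B, 13 in A, 2 each in F and I, and 1 each in C, D, E, G and H. A further 2 probe sets carried several clade A symbols (Serpina11 with Serpina9, and Serpina9 with Serpina12), and neither was called in any comparison.

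The arrays came from 20 male rats aged 15 weeks, 5 in each of 4 groups. Inbred LEW/Crl (LEW) or WKY/NCrl (WKY) rats were fed a standard diet (STD) or a cafeteria diet (CAF), a choice of palatable energy-dense foods used to induce obesity, for 7 weeks, and all were fasted for 9 h before blood was taken from the abdominal aorta. By label the cells are PBMC (mononuclear cells of peripheral blood), while in the study's methods monocytes were purified from them by adherence to plastic. Values are log2 signals, and the array-wide medians lay between 6.83 and 6.90. Of the marker lists, the summed level of the monocyte genes (log2 of the summed linear signals of 16 genes, Cd163 the dimmest at 5.63 to 5.76) was 15.27 to 15.79 over the rats, and that of 16 T cell genes was 15.00 to 15.47, so the preparation held transcripts of both cell types. Summed levels of other cell type lists were 14.61 to 15.49 for platelet, 13.74 to 15.02 for NK cell and 12.47 to 15.09 for neutrophil markers. They were 13.05 to 14.72 for erythroid, 13.39 to 13.80 for B cell and 13.17 to 13.57 for dendritic cell markers. In such bulk samples, fewer cells of a type and less RNA per cell cannot be told apart. Summed heat shock chaperone levels stood apart on 4 arrays, at 15.49 and 15.02 for LEW STD rats 2 and 3, 15.07 for WKY STD rat 1 and 15.30 for LEW CAF rat 2, against 14.42 to 14.68 on the other 16. Results were therefore also computed without these 4 arrays.

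The promoters of the 4 members that differed between the strains on both diets are shown, as the 250 bases before the transcription start in the RefSeq table (build GRCr8), because these are the members the results turn on. Of the 36 members, 29 had an entry in that table. The sequences are those of the reference build, and the promoters of LEW and WKY rats themselves were not examined. Capitals mark motifs found on either strand among the TATA box (TATAAA), the CCAAT box (CCAAT), the GC box (GGGCGG), the core bound by ETS factors (AGGAAG) and the AP-1 site (TGANTCA), where abutting motifs run together in Serpine2.
Serpinb11, chr13:23840576-23840825, plus strand: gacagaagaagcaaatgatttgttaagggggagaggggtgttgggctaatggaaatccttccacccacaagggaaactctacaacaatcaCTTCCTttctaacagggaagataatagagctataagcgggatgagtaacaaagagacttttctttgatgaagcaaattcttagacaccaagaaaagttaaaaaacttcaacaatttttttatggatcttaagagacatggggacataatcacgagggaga
Serpinb10, chr13:24067803-24068052, plus strand: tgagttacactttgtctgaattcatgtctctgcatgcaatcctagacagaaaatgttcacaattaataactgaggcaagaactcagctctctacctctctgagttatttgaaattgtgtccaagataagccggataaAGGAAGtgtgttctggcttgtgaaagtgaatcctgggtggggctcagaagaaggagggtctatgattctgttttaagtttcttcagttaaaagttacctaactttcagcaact
Serpine2, chr9:88637203-88637452, minus strand: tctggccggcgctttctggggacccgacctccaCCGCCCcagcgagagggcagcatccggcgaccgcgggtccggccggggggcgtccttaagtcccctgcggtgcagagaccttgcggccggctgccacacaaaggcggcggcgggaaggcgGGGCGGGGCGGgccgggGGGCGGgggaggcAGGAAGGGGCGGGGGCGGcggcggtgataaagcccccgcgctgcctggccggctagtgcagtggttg
Serpini1, chr2:162645112-162645361, plus strand: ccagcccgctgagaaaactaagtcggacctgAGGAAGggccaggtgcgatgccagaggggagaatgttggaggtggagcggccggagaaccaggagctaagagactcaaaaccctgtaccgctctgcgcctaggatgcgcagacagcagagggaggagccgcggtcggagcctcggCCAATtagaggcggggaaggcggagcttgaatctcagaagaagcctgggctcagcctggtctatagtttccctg
AGGAAG was found 1 time in each of the 4, and 29.5% of 33469 RefSeq promoters of the same length hold it. GGGCGG was found 6 times in Serpine2 alone among the 4, against 30.5% of all promoters with at least 1 match. CCAAT was found 1 time, in Serpini1, and 34.0% of all promoters hold it. Neither TATAAA (12.9% of all promoters) nor TGANTCA (6.34%) was found in the 4. The GC content was 38.8% for Serpinb11 and 39.6% for Serpinb10, below the median of all promoters of 51.2%, and 60.8% for Serpini1 and 76.8% for Serpine2.

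The mean of 9 members reached the median of all probe sets (6.86) in at least 1 group, and 8 of these were of clade B: Serpinb6b, Serpinb10, Serpinb9, Serpinb1a, Serpinb2, Serpinb11, Serpinb6a and Serpinb8. Serpinb11 reached it in LEW rats alone. The other was Serpini1 (neuroserpin). None of the 13 clade A members reached it, and their highest group means ran from 4.45 to 6.35. The 27 remaining members stayed below it in every group, with group means between 4.34 and 6.82. Signals of different probe sets depend on their probes, so this places each probe set on the array's range and does not order the genes by amount of RNA.

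**Figure D1:**
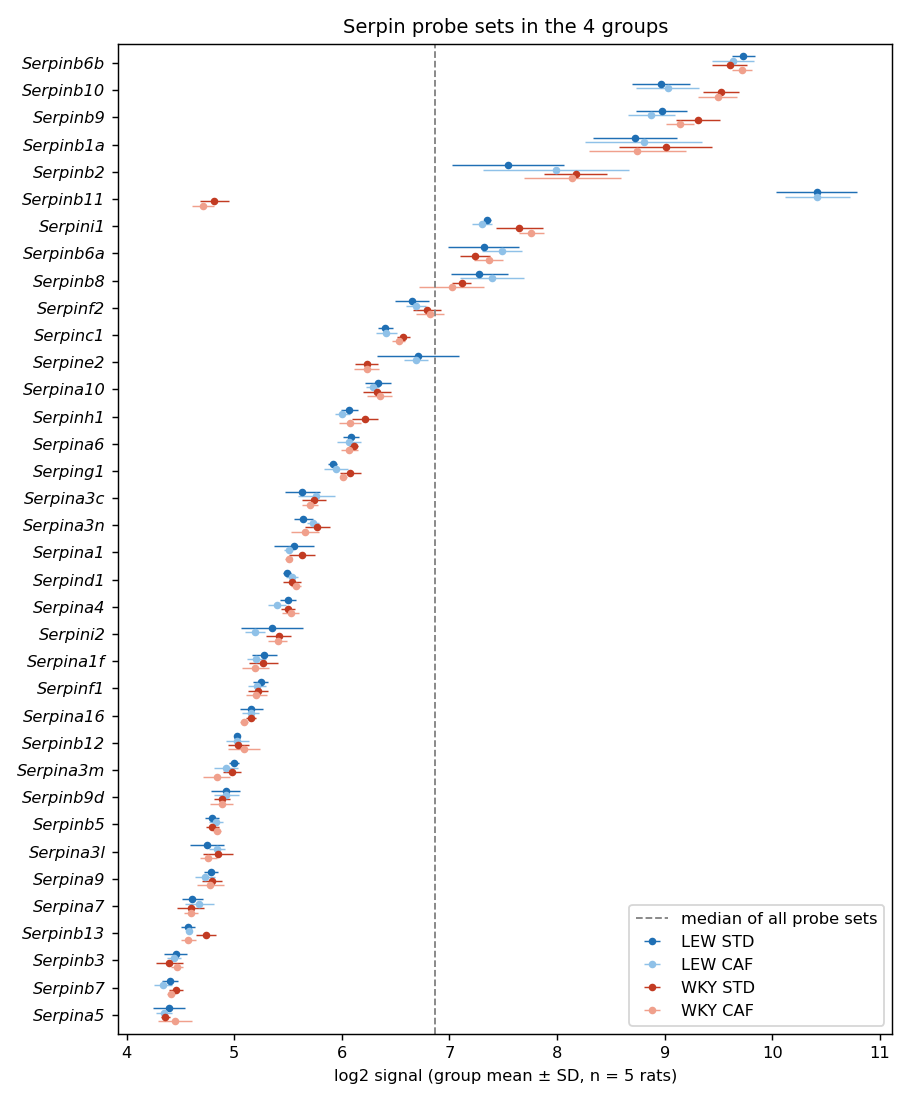
Group means ± SD (n = 5 rats) of the log2 signal of all 36 Serpin probe sets, in the order of their mean over the 20 arrays, with the median of all probe sets as a dashed line. The 4 group means lie close together for most members, while Serpinb11 is split, with LEW rats near 10.41 and WKY rats near 4.82 and 4.71.

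To see which members differed with genotype, WKY rats were compared with LEW rats on each diet. On STD, 6 of the 36 members (16.7%) passed an adjusted p of 0.05, with 4 higher and 2 lower in WKY rats, where 11.3% of all probe sets passed. On CAF, 4 of 36 (11.1%) passed, with 2 higher and 2 lower, where 7.58% of all probe sets passed. Serpinb10 and Serpini1 were higher and Serpinb11 and Serpine2 lower in WKY rats on both diets, while Serpinb13 and Serpinc1 passed on STD alone. The median difference of the members was 0.02 on both diets, next to 0.00 and -0.01 for all probe sets. All values of WKY rats lay apart from those of LEW rats for 6 members on STD and 3 on CAF, against 8.46% and 7.8% of all probe sets. Without the 4 arrays of high heat shock chaperones, 4 members (11.1%) passed on each diet. Of the 28826 probe sets, 3024 then passed on STD and 2339 on CAF. The 95% interval of the difference lay within a 1.5-fold change either way for 31 members on STD and 29 on CAF.

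**Figure D2:**
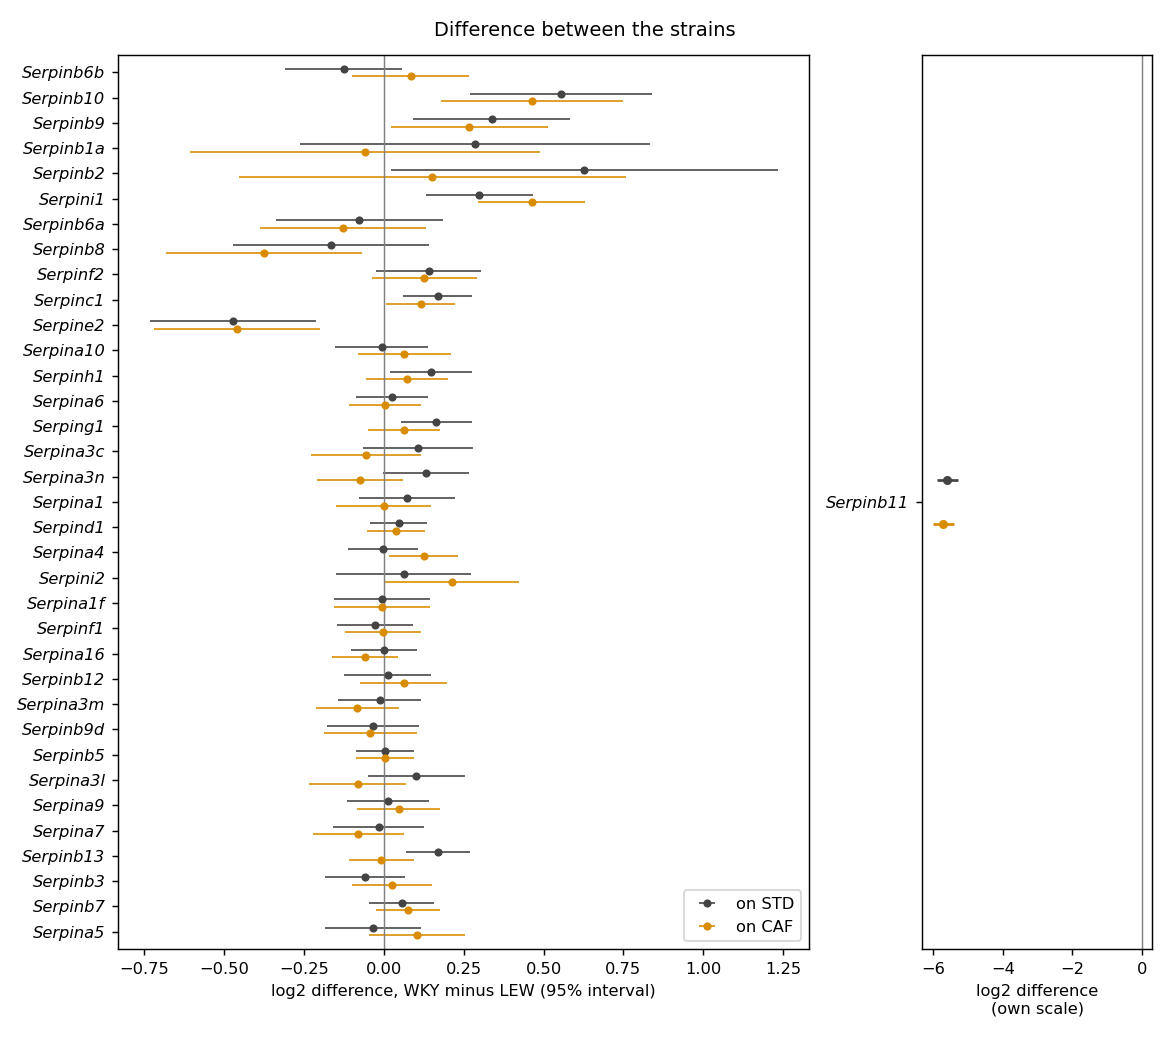
Differences of the log2 signal between WKY and LEW rats with 95% intervals, on STD (grey) and CAF (orange), with Serpinb11 on a scale of its own at the right. Serpinb11 lies at -5.60 and -5.71, and the other 35 members between -0.47 and 0.63.

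Serpinb11 belongs to the clade B cluster. On STD it was 10.15, 10.23, 10.17, 11.05 and 10.45 in LEW rats and 4.62, 4.74, 4.85, 4.96 and 4.90 in WKY rats. On CAF it was 10.32, 10.06, 10.50, 10.88 and 10.32 in LEW rats and 4.76, 4.68, 4.57, 4.68 and 4.85 in WKY rats. Every LEW rat was far above every WKY rat, with no overlap on either diet. The difference was -5.60 ± 0.15 (SE) on STD (adjusted p = 9.28e-16, limma), a 48.4-fold lower signal in WKY rats, and -5.71 ± 0.15 on CAF (adjusted p = 5.32e-16), 52.3-fold. The average of the 2 WKY group means lay near the 10.03rd percentile of all probe set means. That of the LEW group means lay near the 89.7th percentile of the probe set means in LEW rats. The folds therefore rest on a WKY signal close to the low end of the array. No detection calls were used. If the WKY signal is background, the folds are lower bounds of the RNA difference only where the probes read both strains alike. Whether strain differences in the sequence under the probes add to the folds was not tested.

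Serpinb11 lies in a run of clade B genes on chromosome 13, and its neighbours did not share its difference. In the RefSeq order the genes run Bcl2, Kdsr, Vps4b, Serpinb5, Serpinb12, Serpinb13, then, after genes with no probe set matched here, Serpinb3, Serpinb11, Serpinb7, Serpinb2, Serpinb10 and Serpinb8. On its sides, Serpinb3 had group means of 4.40 to 4.47 and Serpinb7 of 4.34 to 4.46, both near the low end in either strain. Kdsr, an enzyme of ceramide synthesis beyond the cluster, was lower in WKY rats, at -0.60 on STD (adjusted p = 3.81e-07) and -0.45 on CAF (adjusted p = 1.72e-05). Vps4b, a protein of endosomal sorting, was higher on STD by 0.22 (adjusted p = 0.0203) and stood at 0.19 on CAF (adjusted p = 0.0657).

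**Figure D3:**
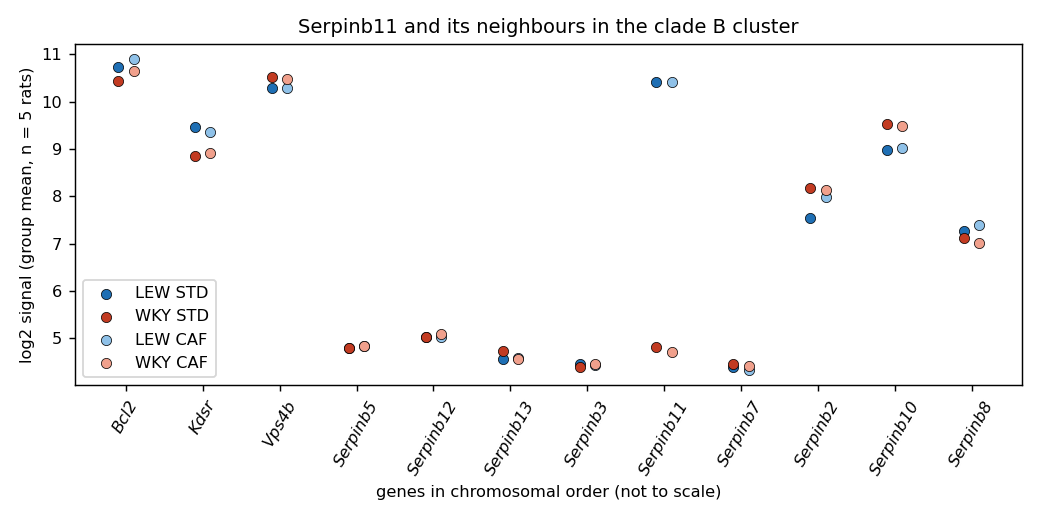
Group means (n = 5 rats) of the log2 signal for genes of the clade B cluster and 3 flanking genes, in chromosomal order with distances not to scale. Serpinb11 alone shows a large gap between the strains, from 10.42 to 4.71 on CAF, while Serpinb3 and Serpinb7 beside it stay between 4.34 and 4.47.

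Serpinb10 (bomapin), a clade B serpin of bone marrow and myeloid cells, was higher in WKY rats. On STD it was 8.95, 9.09, 8.81, 9.34 and 8.63 in LEW rats and 9.38, 9.80, 9.52, 9.42 and 9.48 in WKY rats. On CAF it was 9.19, 9.42, 9.04, 8.73 and 8.76 in LEW rats and 9.38, 9.50, 9.26, 9.58 and 9.73 in WKY rats. The groups lay apart on STD and overlapped on CAF, where 1 LEW rat reached 9.42. The difference was 0.55 ± 0.14 (SE) on STD (adjusted p = 0.0103) and 0.46 ± 0.14 on CAF (adjusted p = 0.0409). The STD call was kept in all 29 alternatives. The CAF call was lost in 10 of 29, among them leaving out any of LEW CAF rats 3, 4 and 5, WKY CAF rats 1, 2, 4 and 5 and WKY STD rat 5, at an adjusted p of 0.0502 to 0.118.

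Serpine2 (protease nexin 1), an inhibitor of thrombin and plasminogen activators, was lower in WKY rats. On STD it was 6.43, 6.50, 6.65, 7.37 and 6.58 in LEW rats and 6.21, 6.17, 6.31, 6.37 and 6.10 in WKY rats. On CAF it was 6.81, 6.57, 6.63, 6.80 and 6.63 in LEW rats and 6.28, 6.10, 6.13, 6.26 and 6.38 in WKY rats. The strains lay apart on both diets, and LEW STD rat 4 stood above its group. The difference was -0.47 ± 0.12 (SE) on STD (adjusted p = 0.0160) and -0.46 ± 0.12 on CAF (adjusted p = 0.0260), and without LEW STD rat 4 it was -0.31 on STD (adjusted p = 0.00770). That rat also had the highest summed level of the 7 platelet genes measured of 14 listed, 15.49, against 14.80 to 15.06 in the other LEW STD rats. It had the highest Serpinb6a (7.85) and Serpinb11 (11.05) of all rats. Within LEW STD, its summed levels were also highest for erythroid markers (14.59), NK cell markers (14.25) and serine proteases of blood and immune cells (12.37). They were lowest for B cell markers (13.44), dendritic cell markers (13.25) and clotting, fibrinolysis and complement genes (12.67). The CAF call was lost without LEW CAF rat 1 or 4 and without WKY CAF rat 2 or 3, at an adjusted p of 0.0601 to 0.0717. On STD the platelet genes Pf4 and Ppbp, 2 of the 7 measured, were lower in WKY rats, at -0.32 (adjusted p = 0.0321) and -0.54 (adjusted p = 0.0158), and on CAF none passed. Selp was the dimmest of the 7, at 6.62 to 6.70. The part of the platelet genes in the Serpine2 difference was not tested, and Serpine2 was not among the members later set against gene lists.

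Serpini1 (neuroserpin), an inhibitor of tissue plasminogen activator, was higher in WKY rats. On STD it was 7.31, 7.39, 7.36, 7.32 and 7.37 in LEW rats and 8.03, 7.50, 7.54, 7.62 and 7.57 in WKY rats. On CAF it was 7.43, 7.31, 7.17, 7.32 and 7.27 in LEW rats and 7.63, 7.65, 7.80, 7.87 and 7.86 in WKY rats. No rat of one strain overlapped the other on either diet. The difference was 0.30 ± 0.08 (SE) on STD (adjusted p = 0.0189) and 0.46 ± 0.08 on CAF (adjusted p = 0.000721). WKY STD rat 1, at 8.03, was also 1 of the 4 arrays of high heat shock chaperones, and without those arrays the STD difference was 0.22 (adjusted p = 0.0596) and the CAF difference 0.47 (adjusted p = 0.000147).

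**Figure D4:**
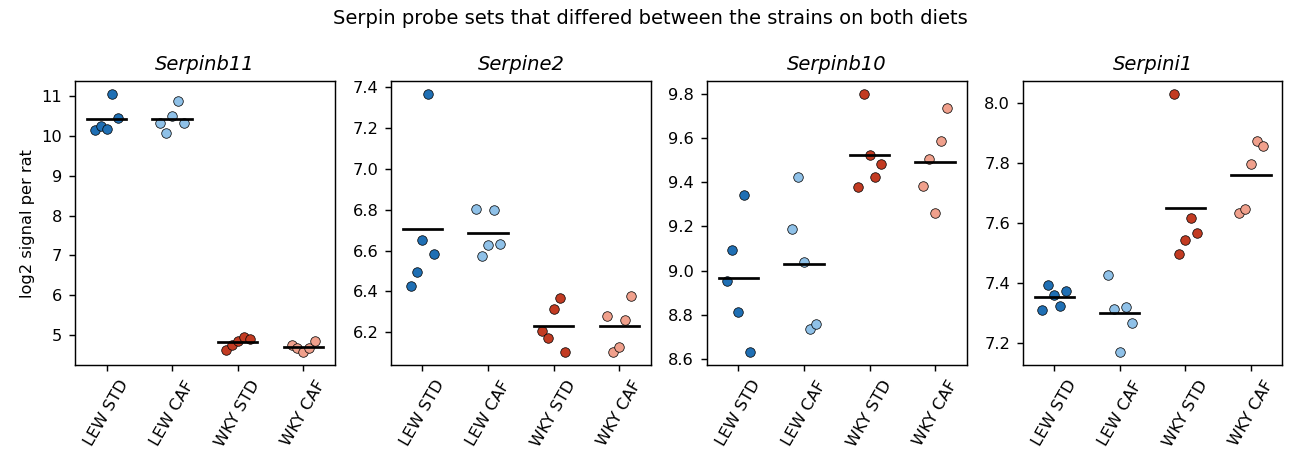
Log2 signal per rat (points, in replicate order) and group mean (bars) for the 4 members that differed between the strains on both diets. Serpinb11 and Serpine2 sit higher in LEW rats and Serpinb10 and Serpini1 in WKY rats, with the LEW STD rat at 7.37 for Serpine2 and the WKY STD rat at 8.03 for Serpini1 above their groups.

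The last pair passed on STD alone, and both differences were small. Serpinc1 (antithrombin), the liver-made inhibitor of thrombin and factor Xa, was 6.30, 6.44, 6.49, 6.38 and 6.40 in LEW STD rats and 6.56, 6.56, 6.57, 6.67 and 6.50 in WKY STD rats. On CAF it was 6.45, 6.55, 6.30, 6.34 and 6.44 in LEW rats and 6.50, 6.48, 6.60, 6.59 and 6.48 in WKY rats. The strains did not overlap on STD, though the nearest values were 6.49 (LEW) and 6.50 (WKY), and they overlapped on CAF. The difference of means was 0.17 ± 0.05 on STD (adjusted p = 0.0389) and 0.12 ± 0.05 on CAF (adjusted p = 0.223). Serpinb13, a clade B serpin of squamous epithelium, was 4.64, 4.52, 4.49, 4.59 and 4.60 in LEW STD rats and 4.60, 4.71, 4.79, 4.75 and 4.85 in WKY STD rats. On CAF it was 4.54, 4.61, 4.61, 4.59 and 4.56 in LEW rats and 4.63, 4.60, 4.50, 4.64 and 4.50 in WKY rats. The strains overlapped on both diets, and the STD difference of 0.17 ± 0.05 (adjusted p = 0.0265) sat near the low end of the array. The interaction of diet and strain did not pass for Serpinb13 (-0.18, adjusted p = 0.817) or for Serpinc1 (-0.05, adjusted p = 0.942), so neither strain difference is shown to depend on the diet. The Serpinc1 call was lost in 12 of 28 alternatives, among them centring, quantile normalisation and leaving out LEW STD rats 1, 4 or 5 or WKY STD rats 1, 2, 3 or 4 (adjusted p = 0.0537 to 0.108). The Serpinb13 call was lost in 7 of 28, among them centring and leaving out LEW STD rats 2 or 3 or WKY STD rats 3 or 5 (adjusted p = 0.0595 to 0.104).

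The leukocyte serpins that did not pass included some of the highest signals. Serpinb9, the inhibitor of granzyme B, averaged 8.97 ± 0.24 (SD, n = 5) in LEW STD, 9.31 ± 0.20 in WKY STD, 8.87 ± 0.22 in LEW CAF and 9.14 ± 0.13 in WKY CAF rats, and the strain differences of 0.34 and 0.27 had adjusted p = 0.0730 and 0.215. Serpinb2 (plasminogen activator inhibitor 2) averaged 7.54 ± 0.52, 8.17 ± 0.30, 7.99 ± 0.68 and 8.14 ± 0.45 in the same order, and the STD difference of 0.63 had adjusted p = 0.196. Its SD within groups, 0.51, was at the 99.5th percentile of all probe sets, and that of Serpinb1a, 0.46, at the 99.3rd. Serpinb1a, the inhibitor of neutrophil elastase, averaged 8.73 ± 0.39, 9.01 ± 0.43, 8.80 ± 0.54 and 8.74 ± 0.45. Serpinb6b averaged 9.73 ± 0.11, 9.60 ± 0.16, 9.63 ± 0.20 and 9.72 ± 0.09. Serpinb6a averaged 7.32 ± 0.33, 7.24 ± 0.14, 7.49 ± 0.19 and 7.36 ± 0.14. Serpinb8 averaged 7.28 ± 0.26, 7.11 ± 0.09, 7.39 ± 0.30 and 7.02 ± 0.30. For Serpinb8 the CAF difference was -0.37 (adjusted p = 0.149). Serpinh1, the collagen chaperone also called HSP47, averaged at most 6.22 in a group and did not pass in any comparison. Serping1, the C1 inhibitor of complement, did not overlap between the strains on STD, where the nearest values were 5.96 (LEW) and 5.98 (WKY). Its difference of means, 0.16, did not pass (adjusted p = 0.0520).

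Members were then compared between the diets within each strain. No member and no other probe set passed an adjusted p of 0.05 in LEW rats (0.0%), in WKY rats (0.0%) or for the interaction (0.0%) with limma. At an unadjusted p of 0.05, 0 of 36 members passed in LEW rats, where 5.46% of all probe sets passed. In WKY rats 3 passed, all lower on CAF, where 8.81% of all probe sets passed. For the interaction 2 passed, both lower, where 5.95% of all probe sets passed. None of these counts exceeded the share of all probe sets. The 3 in WKY rats were Serpinb13 (-0.17), Serpinh1 (-0.14) and Serpina3m (-0.14), and the 2 of the interaction were Serpinb13 (-0.18) and Serpina3n (-0.21). The differences ran from -0.16 to 0.45 in LEW rats and from -0.27 to 0.12 in WKY rats, and the interval lay within a 1.5-fold change for 34 of 36 members in each strain. The largest, Serpinb2 in LEW rats at 0.45, had an interval of -0.16 to 1.05. For Serpinb11 the diet difference was 0.00 in LEW rats (interval -0.31 to 0.31) and -0.11 in WKY rats (-0.42 to 0.20). The strain and diet comparisons share groups of rats.

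**Figure D5:**
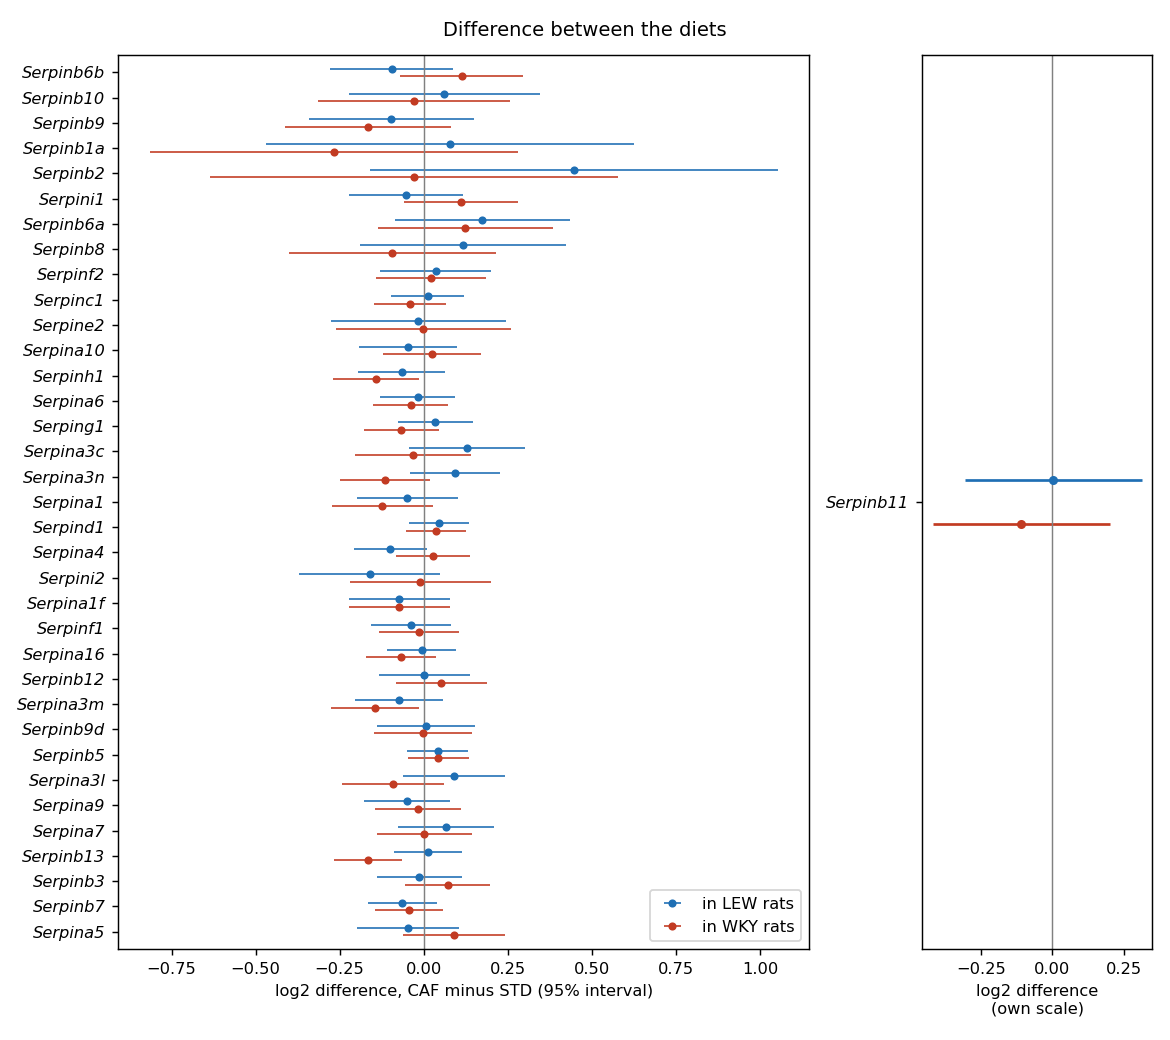
Differences of the log2 signal between CAF and STD with 95% intervals, in LEW (blue) and WKY (red) rats, with Serpinb11 on a scale of its own at the right. Most intervals cross 0 and none of the 36 members passed in either strain.

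Proteases that serpins act on were read beside them, against the 11.3% of all probe sets called on STD and 7.58% on CAF. Of 15 measured serine proteases of blood and immune cells, 5 were higher and 1 lower in WKY rats on STD, and 3 higher and 1 lower on CAF, with list medians of 0.25 and 0.02 next to 0.00 and -0.01 for all probe sets. The granule proteases Gzma, Gzmk and Gzmm were higher on both diets, Gzma by 1.71 (adjusted p = 5.92e-06) and 1.61 (adjusted p = 1.48e-05), while Ctrb1, a digestive protease precursor, was lower, at -0.60 and -0.86. Gzmb, the target of Serpinb9, was higher on STD by 1.32 (adjusted p = 0.00639). Of 23 clotting, fibrinolysis and complement genes, 2 were higher and none lower on STD, and 2 higher and 1 lower on CAF: F3 (tissue factor) by 1.71 and 1.45 and Plaur (urokinase receptor) by 0.66 and 0.44, with Lrp1, a receptor that clears serpin complexes, at -0.55 on CAF. The clotting list's share of calls lay below that of all probe sets on STD and above it on CAF. Of 9 cysteine cathepsins and caspases, 1 was higher and 2 lower on STD and 3 lower on CAF, where Ctss and Casp1 were both at -0.38. Of 20 other inhibitors, 3 were higher and 1 lower on STD and 2 higher and 2 lower on CAF, with Spint1 at 0.56 and 0.62 and Wfdc2 at -0.38 and -0.45. In WKY rats 12 of 16 neutrophil markers were higher on STD and 5 on CAF, with summed levels of 13.46 to 15.09 against 12.47 to 13.91 in LEW rats, and 11 of 12 NK cell markers were higher on STD and 8 on CAF, with 14.44 to 15.02 against 13.74 to 14.25. The NK cell marker Klrd1 was lower on both diets, at -1.15 and -1.14. Gzma and Gzmb are in both the NK cell list and the serine protease list, and Elane in both the neutrophil and serine protease lists. Nr4a1 is listed among both the monocyte markers and the immediate-early genes given below. The counts of these lists are therefore not independent of each other. The dimmest neutrophil marker was Ltf, at 5.71 to 5.79, and the dimmest NK cell marker Ncr1, at 7.06 to 8.35. In the list of 23 interferon-stimulated genes, WKY rats had 20 called higher on STD and 17 on CAF, and in that of 18 immediate-early genes 13 and 6, while 8 of 16 T cell markers were lower on STD and 3 on CAF. Of 16 monocyte markers 5 were higher and 3 lower on STD, and 2 higher and 3 lower on CAF. Their part in the protease and serpin differences was not tested.

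Within groups, 9 members were set against 11 gene lists over the 20 rats, with group means removed. The 9 were those whose mean over the 20 arrays reached the median of all probe sets. Serpinb11 was among them only through its LEW values, and its WKY values lay near the low end of the array. Of the 99 pairs, none passed an adjusted p of 0.05 in a permutation test of 100000 resamples within groups, and 20 did at an unadjusted p of 0.05. The largest correlation was that of Serpinb6a with the platelet markers (r = 0.86, p = 0.000790, adjusted p = 0.0594, rho = 0.71, p = 0.00245, adjusted p = 0.158), and r was 0.73 without LEW STD rat 4 and WKY CAF rat 1.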

How the data were processed

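RNA of 20 rats was hybridised by the authors to 1 Rat Gene 1.0 ST array each, and they deposited a table of log2 signals per probe set, normalised between arrays. The methods describe RMA, while the submitters' notes name MAS5 without a version. The values were used as deposited. Samples were grouped by their labels. Gene symbols came from the platform's annotation and all 36 members matched a current RefSeq symbol by gene ID. For each of the 28826 probe sets, group means over all 20 arrays were fitted with limma (version 3.58.1, R 4.3.3). Its eBayes step, run with no trend, had 16 residual degrees of freedom and a prior worth 3.67. P-values were adjusted over all probe sets by the Benjamini-Hochberg method. A call is an adjusted p under 0.05, and p-values without another test named are from limma. The labels name biological replicates, and p-values measure the spread between these rats. The fit was tested on simulated data with independent noise and no difference across a whole strain. No result here rests on that test. The number of arrays limits the precision, and the median SE of a difference was 0.0689.

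Members called in any comparison were named with all values, members at or above the median of all probe sets with group means, and up to 4 genes of each pathway list by smallest adjusted p. Members and gene lists were chosen with earlier results of these data known, and nothing rests on them as independent support. Alternatives were scaling, filters, weights, the groups fitted, the threshold, the adjustment, leaving out each rat and, chosen after seeing the data, leaving out the 4 arrays of high heat shock chaperones. With the group mean of each probe set removed, same-numbered rats of different groups correlated between -0.177 and 0.430, with 9 of 30 pairs over 0.1. The highest were LEW STD with LEW CAF for rats 5 (0.430) and 2 (0.407). The same correlation was not computed for rats of different numbers, so these values cannot decide whether the numbers pair the rats. The main fit did not pair them, and a fit with the number as a block was an alternative. Correlations were recomputed under alternatives for the 20 pairs with an unadjusted p under 0.05. This choice, and the change in r of 0.2 that was counted as a move, were made after seeing the data.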

Additional observations from a re-analysis of the deposited data

Results flagged for a closer look

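Among 48 groups of 5 rats for 12 members, 2 held a rat far from the others by Dixon's ratio (chance flags about 1 in 20 groups). Serpine2 was 7.37 in LEW STD rat 4, where the other 4 lay between 6.43 and 6.65. Serpini1 was 8.03 in WKY STD rat 1, where the other 4 lay between 7.50 and 7.62. No cause of either value was tested.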

How the results depend on the processing

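Of 286 differences of the called members under an alternative, 250 kept the call and 36 lost it, and none changed sign. Serpinb11 kept its call on both diets in all 29 alternatives and Serpini1 on CAF likewise. The number of members called on STD was 6 (16.7%), where 3247 of 28826 probe sets passed. With only the 2 groups compared in the fit, where fewer samples estimate the spread, it was 2 (5.6%). In that fit 2388 of all probe sets passed, a larger share than that of the members. Serpine2 (adjusted p = 0.0821) and Serpini1 (adjusted p = 0.0658) were among those lost on STD. Leaving out each rat in turn it was 4 to 7 on STD and 2 to 4 on CAF, where the main count was 4. Over all probe sets the calls were then 2435 to 3414 on STD and 1677 to 2358 on CAF. The number of members called on CAF was 2 without LEW CAF rat 4 and without WKY CAF rat 2. At an unadjusted p under 0.01, 1 member (2.78%) passed between the diets in WKY rats, a share close to the 2.64% of all probe sets, and none at the adjusted threshold. With the replicate number as a block, 7 members passed on STD and 5 on CAF, next to 6 and 4 without the block. Over all probe sets 3384 and 2345 passed with the block, next to 3247 and 2185 without it. Centring each array on its median moved the share of higher calls among all probe sets on STD from 52.2% to 41.7%. It left 4 members (11.1%) called on STD, where 3364 of 28826 probe sets passed, a share close to that of the members. Of the correlations, that of Serpinb11 with the dendritic cell markers moved most, from -0.73 to -0.11 with the list's mean of log2 values, and its WKY values lie near the low end of the array. The cause was not tested. Signals near the low end of the array limit what could be seen for the 27 members below the median.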
